A study of Mus musculus with 6 samples.

Results

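The genes studied here encode the lecticans of brain extracellular matrix and the proteins that hold them in perineuronal nets. They were taken by gene symbol, as a list drawn up with earlier results of these data known: Acan, Bcan, Ncan and Vcan (lecticans), Hapln1 and Hapln4 (link proteins), Tnr and Tnc (tenascins), Ptprz1 (a receptor phosphatase that is also a chondroitin sulfate proteoglycan) and Has3 (a hyaluronan synthase). All 10 were among the 54429 genes of the deposited counts, and all 10 had enough counts to be tested. RNA sequencing was done on bulk lysate of prefrontal cortex (PFC) from 6 mice, all 6 months old, with 2 biological replicates per group: control (C57BL/6 x C3H) mice given vehicle (WT + vehicle), PS19(P301S) mice given vehicle (Tau + vehicle), and PS19(P301S) mice given UNC0642 (Tau + UNC0642). The PS19 line carries a mutant human tau transgene under the mouse prion promoter. Vehicle was saline with DMSO. UNC0642, an inhibitor of the histone H3K9 methyltransferases EHMT1 and EHMT2, was given by injection at a dose of 1 mg/kg on each of 3 days, and tissue was taken the day after the last injection. WT mice given UNC0642 were not analysed here, so the drug can be read only against Tau + vehicle or against WT + vehicle mice.

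Perineuronal nets are condensed sheaths of matrix around the cell body and proximal dendrites of certain neurons, in cortex mostly the parvalbumin-positive interneurons. They are built on hyaluronan, a long sugar polymer made at the cell surface. Lecticans bind hyaluronan at their N-terminal end, link proteins lock that bond, and tenascin-R joins the C-terminal ends of the lecticans to each other. Aggrecan (Acan) is the lectican most closely tied to nets, brevican (Bcan) and neurocan (Ncan) are also spread through the loose matrix around synapses, and versican (Vcan) is made in large part by cells of the oligodendrocyte lineage.

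Depth was 17005664 to 28972176 counts per library. Replicate mice differed by a biological coefficient of variation of 12.3%, edgeR's common estimate over genes. Values are in CPM, the standard unit of counts scaled to a common library size, here after TMM adjustment, and in each list of 6 values the order is WT replicates 1 and 2, Tau + vehicle replicates 1 and 2, then Tau + UNC0642 replicates 1 and 2. Xist and the Y-linked Ddx3y put WT replicate 1 and both Tau + UNC0642 libraries in a male pattern and WT replicate 2 and both Tau + vehicle libraries in a female pattern. The drug and this pattern therefore cannot be told apart in the comparison of Tau + UNC0642 with Tau + vehicle mice. Tau + vehicle replicate 2 stood apart: its 9 mature oligodendrocyte markers summed to 5533 CPM against 1463 to 2970 CPM in the other libraries, and its 8 striatal markers to 252.9 CPM against 97.7 to 122.5 CPM. In bulk tissue, fewer cells of a type and less RNA per cell cannot be told apart.

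Compared per kilobase of exon, the 10 transcripts spanned a wide range of levels. Ncan was the most abundant at a mean of 35.8 CPM per kilobase over the 6 libraries, followed by Hapln4 (27.01), Bcan (25.3), Tnr (19.8) and Ptprz1 (12.8). Hapln1 averaged 5.11 CPM per kilobase, Vcan 2.06, Tnc 1.43, Has3 0.747 and Acan 0.473. The library ranges of neighbours in this order overlapped for Hapln4 and Bcan, Bcan and Tnr, Vcan and Tnc, Tnc and Has3, and Has3 and Acan, and did not overlap for the other neighbours. Acan and Has3, the least abundant, rested on 42 to 142 and 76 to 126 counts per library. The lengths are those of all annotated exons of a gene together, so genes with several isoforms are understated on this scale.

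Among the lecticans, Ncan and Bcan together made up almost all lectican mRNA per kilobase. Bcan was 42.4% and 41.9% of it in WT mice, 37.0% and 37.7% in Tau + vehicle mice and 38.4% and 40.9% in Tau + UNC0642 mice. The share of Bcan was thus higher in both WT libraries than in any Tau library. Vcan went from 2.74% and 2.76% in WT mice to 3.28% and 4.46% in Tau + vehicle mice and was 3.18% and 3.14% in Tau + UNC0642 mice. The ratio of Bcan to Ncan per kilobase, a measure within each library, was 0.787 and 0.765 in WT, 0.628 and 0.662 in Tau + vehicle and 0.664 and 0.738 in Tau + UNC0642 libraries.

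**Figure D1:**
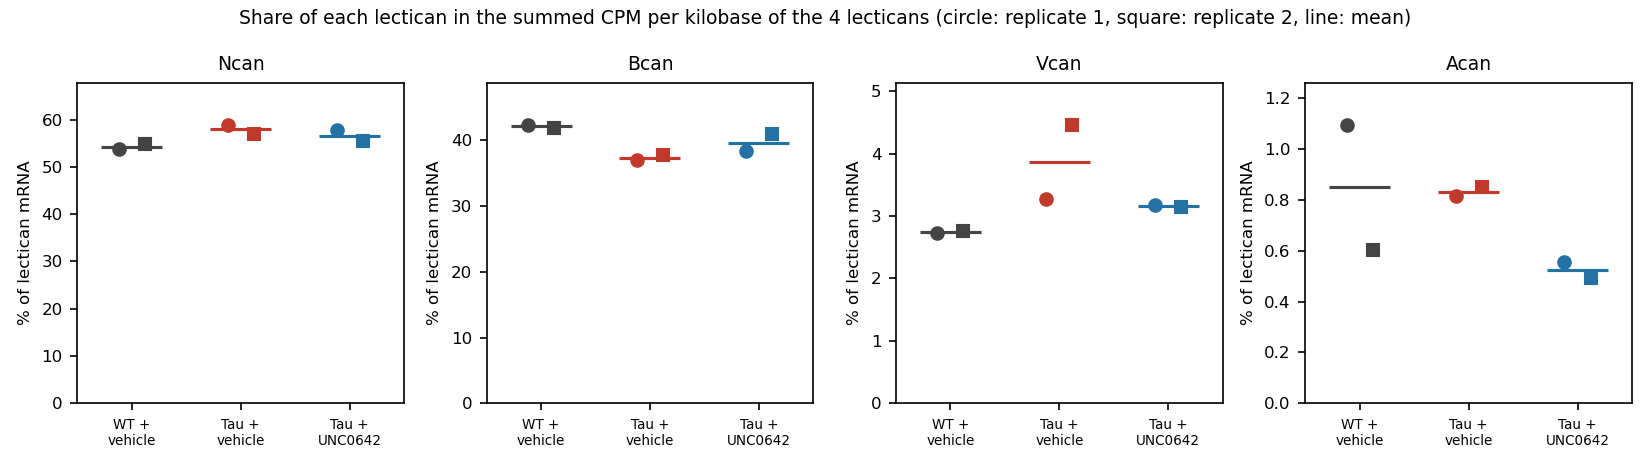
Percent of the summed CPM per kilobase of the 4 lecticans (y axis, a separate scale from 0 in each panel) contributed by Ncan, Bcan, Vcan and Acan in the 2 libraries of each group (x axis); circles are replicate 1, squares replicate 2 and lines group means. Both WT libraries sit above all Tau libraries for Bcan (42.4% and 41.9% against 37.0% to 40.9%), and Tau + vehicle replicate 2 is the highest for Vcan at 4.46%.

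The comparison of Tau + vehicle with WT + vehicle asked which matrix genes differ with the tau transgene. Vcan and Hapln1 were called higher and Bcan and Tnc lower, where called means a p under 0.05 before adjustment together with a change of 1.2-fold or more. That is 2 of 10 higher, where 3.72% of all 20409 genes tested were called higher, and 2 of 10 lower, where 6.10% were called lower. By edgeR's quasi-likelihood test (smallest adjusted p 0.265, for Bcan), limma-voom or DESeq2, 0 of the 10 genes had an adjusted p under 0.05, and 4 had an unadjusted p under 0.05 by each of these tools. The median log2 fold change of the 10 was -0.040, against -0.00011 over all genes tested, and was 0.040 without Tau + vehicle replicate 2.

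Vcan encodes versican, a large hyaluronan-binding lectican. Its level was 27.1, 26.99, 31.4, 38.5, 27.6 and 27.3 CPM. Both Tau + vehicle libraries were above all 4 others, which lay close together. The log2 fold change between Tau + vehicle and WT mice was 0.37 (SE 0.12, adjusted p = 0.299). Without Tau + vehicle replicate 2 it was 0.22 and no longer called. With WT replicate 1 left out, so that the WT and Tau + vehicle libraries were all of the female pattern, it was 0.36 and called. The summed level of 10 oligodendrocyte progenitor markers was 195, 179.5, 208, 219, 161 and 173 CPM, highest in the 2 Tau + vehicle libraries, with Pdgfra its largest part at 66.2 to 80.4 CPM. The markers were not uniform: Cspg4, C1ql1, Lhfpl3 and Matn4 were highest in a WT library, and the mean log2 CPM of the list was 3.82, 3.53, 3.73, 3.82, 3.30 and 3.45. The part of these cells in the Vcan values was not tested. Vcan is also in the study's own list of genes that changed with tau and moved back with the drug, chosen on these same libraries, so its direction here is not independent evidence.

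Hapln1 encodes the link protein that fastens lecticans to hyaluronan in nets. No coding gene lies between it and Vcan on chromosome 13, where the genes lie 43.7 kb apart on opposite strands. Its level was 21.1, 31.2, 32.2, 37.5, 29.8 and 29.1 CPM. Both Tau + vehicle libraries were above both WT libraries, but WT replicate 2 was close to the lower of them and WT replicate 1 was the lowest of all 6. The log2 fold change was 0.41 (SE 0.17, adjusted p = 0.371). With WT replicate 1 left out, which leaves libraries of the female pattern, it was 0.15 and not called, and with a term for sex-linked expression, which rests on the difference between the WT libraries, it was also 0.15. Leaving out Tau + vehicle replicate 2 gave 0.30, also not called, and the call was lost with library size alone (0.35) and when the 2 groups were fitted alone (0.40). A pseudogene on the other strand within the gene, Gm8546, had 241 to 449 counts, and whether counting used the strand is not given in the sources used here.

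The promoters of this neighbouring pair are shown because both genes were called higher in Tau + vehicle mice. Each sequence is the RefSeq promoter of GRCm38.p6, 300 bases that end 50 bases after the start, read 5′ to 3′ on the strand of the gene. That of Vcan is chr13:89742463-89742762 on the minus strand, with 12 CpG and 61% GC, and that of Hapln1 is chr13:89540386-89540685 on the plus strand, with 3 CpG and 54.3% GC. Capitals mark the motifs searched on both strands: the TATA box TATAAA, the CCAAT box CCAAT, the GC box GGGCGG, the AP-1 site TGACTCA and the cAMP response element core TGACG, of which none contains another. They occur in 13.6%, 37.4%, 35.9%, 5.19% and 20.9% of all 32544 promoters of this length.
Vcan: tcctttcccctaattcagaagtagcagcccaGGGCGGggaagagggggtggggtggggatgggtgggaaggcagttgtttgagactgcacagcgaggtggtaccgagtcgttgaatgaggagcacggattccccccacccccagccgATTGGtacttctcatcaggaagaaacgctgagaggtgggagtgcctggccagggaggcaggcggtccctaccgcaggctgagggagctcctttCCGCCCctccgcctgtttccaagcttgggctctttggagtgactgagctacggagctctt
Hapln1: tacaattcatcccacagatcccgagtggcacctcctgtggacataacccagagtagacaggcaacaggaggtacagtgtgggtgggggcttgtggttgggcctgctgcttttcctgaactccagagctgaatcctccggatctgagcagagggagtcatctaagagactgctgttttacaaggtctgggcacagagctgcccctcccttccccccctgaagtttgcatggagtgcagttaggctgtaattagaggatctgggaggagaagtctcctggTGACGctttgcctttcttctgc
Vcan held 2 GC boxes and 1 CCAAT box, and Hapln1 held 1 TGACG and no GC box. The pair shared none of the motifs searched. Entries were found for 8 of the 10 genes, and CpG numbers ran from 3 in Hapln1 and Tnr to 31 in Acan, against a median of 7 over all promoters.

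Bcan encodes brevican, the lectican of perisynaptic matrix, and Tnc encodes tenascin-C, a matrix glycoprotein abundant in the developing brain. Bcan was at 118, 115, 99.6, 91.4, 93.5 and 100.1 CPM. All 4 libraries of Tau mice, given UNC0642 or vehicle, were below both WT libraries. Its log2 fold change between Tau + vehicle and WT mice was -0.29 (SE 0.082, adjusted p = 0.265). Bcan was called in 14 of 15 other fits. The exception was the fit without Tau + vehicle replicate 2, where the log2 fold change was -0.22 at an unadjusted p of 0.0471 in edgeR's quasi-likelihood test, with a change under 1.2-fold. Its relative Ncan, neurocan, was at 265, 266, 281, 244, 249 and 240.0 CPM, with the Tau + vehicle libraries on either side of the WT libraries and a log2 fold change of -0.016 (SE 0.082).

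Tnc was at 14.7, 14.9, 12.4, 5.95, 11.1 and 7.72 CPM. Every library of a Tau mouse was below both WT libraries, but the 2 Tau + vehicle libraries differed from each other by more than either differed from its nearest neighbour in another group. The log2 fold change was -0.66 (SE 0.28, adjusted p = 0.388), and it was -0.25 without Tau + vehicle replicate 2 and -1.31 without Tau + vehicle replicate 1. The call was also lost without WT replicate 1 or WT replicate 2 and with the sex-linked term, at nearly the same log2 fold change (-0.67, -0.65 and -0.67), whereas in edgeR's quasi-likelihood fit without a filter on low counts its adjusted p was 0.0143. Tnr, which encodes tenascin-R, the cross-linker of nets, was at 260.0, 289.8, 310, 220.0, 240.3 and 209 CPM. The Tau + vehicle libraries held both the highest and the second lowest value, and the log2 fold change was -0.053 (SE 0.14). The 7 endothelial markers, summing to 195.6, 184.7, 135.5, 144.6, 137.9 and 183.3 CPM, were also highest in WT libraries. Of these, 4 were called lower in Tau + vehicle and 3 in Tau + UNC0642 than in WT mice (backgrounds 6.10% and 5.69%). Of 8 tested meningeal markers, 2 and 1 were called lower in these comparisons, against the same backgrounds, and so few calls are not a result about the list. Other lists did not have this order. Astrocyte markers summed to 4893, 5389, 5175, 5199, 5382 and 5598 CPM, with Slc1a2 the largest part at 3047 to 3605 CPM. The mean log2 CPM of the astrocyte list was 7.48, 7.53, 7.59, 7.73, 7.64 and 7.63, lowest in the WT libraries. The oligodendrocyte progenitor markers summed highest in the Tau + vehicle and lowest in the Tau + UNC0642 libraries. The part of any of these cell types in the Bcan and Tnc values was not tested. As a share of tenascin mRNA per kilobase, Tnc was 8.54% and 7.84% in WT, 6.21% and 4.29% in Tau + vehicle and 7.09% and 5.77% in Tau + UNC0642 libraries.

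The promoters of the 2 genes called lower are shown for comparison with those of the genes called higher, from the same source and with the same marking. That of Bcan is chr3:88000307-88000606 on the minus strand, with 24 CpG and 64% GC, and that of Tnc is the first of 2 listed starts, chr4:64046966-64047265 on the minus strand, with 10 CpG and 47.3% GC.
Bcan: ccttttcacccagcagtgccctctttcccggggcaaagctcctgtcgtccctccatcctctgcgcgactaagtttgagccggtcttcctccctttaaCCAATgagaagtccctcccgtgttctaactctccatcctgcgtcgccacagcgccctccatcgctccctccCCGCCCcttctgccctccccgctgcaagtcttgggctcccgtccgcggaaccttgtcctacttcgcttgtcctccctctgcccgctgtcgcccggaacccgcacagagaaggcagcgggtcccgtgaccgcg
Tnc: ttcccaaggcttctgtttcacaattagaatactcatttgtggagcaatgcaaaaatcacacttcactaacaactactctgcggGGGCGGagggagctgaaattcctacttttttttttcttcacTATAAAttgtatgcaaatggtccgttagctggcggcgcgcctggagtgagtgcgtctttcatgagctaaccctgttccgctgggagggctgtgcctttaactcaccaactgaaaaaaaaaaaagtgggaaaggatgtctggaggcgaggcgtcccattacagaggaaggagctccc
Bcan held 1 CCAAT box and 1 GC box. Tnc held 1 TATA box and 1 GC box, and was alone among the 4 printed promoters in holding a TATA box.

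The remaining genes were not called in this comparison. Ptprz1, whose product binds tenascins and contactin and whose secreted form is a matrix proteoglycan, was the steadiest, at 182, 187, 183, 179, 173 and 187 CPM. Its log2 fold change was -0.027 with a 95% interval from -0.19 to 0.14. Hapln4, the link protein that partners brevican, was at 102, 109.6, 119, 110.1, 112 and 83.2 CPM, with both Tau + vehicle libraries above both WT libraries, narrowly, and a log2 fold change of 0.12 (SE 0.12). Acan and Has3 had log2 fold changes of -0.14 (SE 0.31) and -0.10 (SE 0.22), with intervals from -0.82 to 0.54 and from -0.58 to 0.38.

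**Figure D2:**
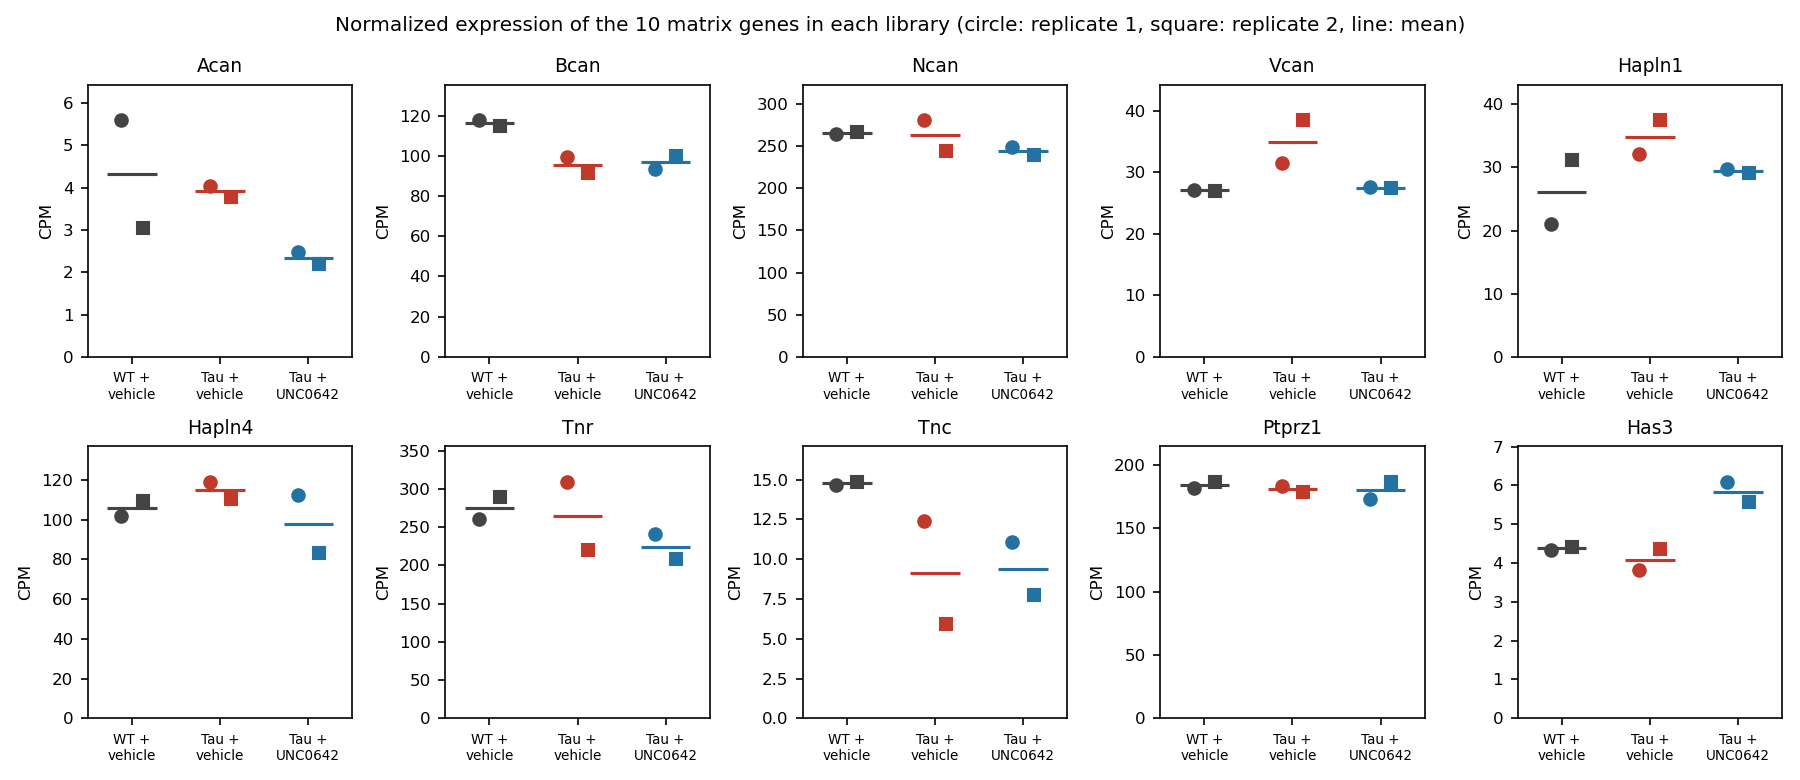
CPM of each of the 10 genes (y axis, a separate scale from 0 in each panel) in the 2 libraries of each group (x axis); circles are replicate 1, squares replicate 2 and lines group means. Bcan and Tnc lie lower in all 4 libraries of Tau mice than in WT mice, Vcan is highest in the 2 Tau + vehicle libraries (31.4 and 38.5 CPM), and Acan is lowest and Has3 highest in the 2 Tau + UNC0642 libraries.

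The comparison of Tau + UNC0642 with Tau + vehicle asked which of these genes differ with the drug in mice that carry the transgene. Has3 was called higher (1 of 10, against 3.73% of all genes tested), and Acan and Vcan were called lower (2 of 10, against 3.95%). The 10 genes had a median log2 fold change of -0.17, against -0.0023 over all genes tested. With single libraries left out, that median ran from -0.27 to 0.0063, the latter without Tau + vehicle replicate 1. An adjusted p under 0.05 was reached by 0 of the 10 genes in edgeR's quasi-likelihood test, limma-voom and DESeq2, and an unadjusted p under 0.05 by 3, 2 and 1 of them. This comparison shares the Tau + vehicle libraries with the one above, so their values are not independent.

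Acan encodes aggrecan, the lectican most restricted to nets. It was at 5.60, 3.05, 4.04, 3.78, 2.49 and 2.21 CPM, from 142, 78, 113, 66, 42 and 50 counts. The Tau + UNC0642 libraries were below all others, and the WT libraries were the farthest apart of any group. The log2 fold change was -0.74 (SE 0.32, adjusted p = 0.549). It lay between -0.83 and -0.65 with single libraries left out, and the call was lost without either Tau + vehicle or either Tau + UNC0642 library, with library size alone, in limma-voom and under DESeq2's Wald test. With a term for sex-linked expression it was -1.62. For every gene in this comparison, that term rests only on the difference between the WT libraries. It cannot separate the drug from the sex-linked pattern. The 9 parvalbumin interneuron markers summed to 1003, 861, 907, 899, 851 and 817 CPM. The high sum in WT replicate 1 came from Gad1, a marker of all GABA neurons, at 448.6 CPM against 266 to 316 CPM elsewhere. The libraries had the same order by this sum as by Acan. The mean log2 CPM of the list was 5.82, 5.89, 5.97, 5.96, 5.83 and 5.75. It was highest in the Tau + vehicle libraries and did not have the order of Acan. Tac1, which is also in the striatal list, was at 12.5, 13.7, 18.9, 26.8, 13.1 and 18.0 CPM. It alone of the 9 was called higher with tau (background 3.72%), and it alone was called lower with the drug (background 3.95%). The parvalbumin and striatal lists are therefore not independent. Pvalb itself was at 31.5, 41.4, 41.2, 47.3, 49.0 and 39.0 CPM, and the part of these cells in the Acan values was not tested.

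Vcan fell from 31.4 and 38.5 to 27.6 and 27.3 CPM, with a log2 fold change of -0.34 (SE 0.12, adjusted p = 0.467). It was -0.20 without Tau + vehicle replicate 2 and -0.35 with a term for sex-linked expression, neither of them called, and the call was also lost without either Tau + UNC0642 library. Of the 10 oligodendrocyte progenitor markers, 4 were called lower in the same comparison (Neu4, Gpr17, Sox10 and Olig1), where 3.95% of all genes tested were called lower. Sox10, a transcription factor shared with mature oligodendrocytes, was highest in Tau + vehicle replicate 2 at 12.8 CPM, against 4.50 to 8.75 CPM in the other libraries. Like Vcan, Sox10 is in the study's list chosen on these same libraries, so its direction is not independent evidence.

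Has3 encodes one of the enzymes that extrude hyaluronan. It was at 4.34, 4.41, 3.83, 4.35, 6.10 and 5.56 CPM, from 76 to 126 counts. Both Tau + UNC0642 libraries were above all 4 others, which lay close together. Its log2 fold change was 0.51 (SE 0.22, adjusted p = 0.537), and it was between 0.42 and 0.60 with single libraries left out. The call was lost without any one of the Tau libraries, with a term for sex-linked expression (0.54) and under DESeq2's Wald test (0.52). Has3 overlaps Chtf8 on the opposite strand, which had 1099 to 1988 counts, so reads of Chtf8 cannot be told apart from those of Has3 if counting did not use the strand.

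Hapln1, Hapln4 and Tnr had similar log2 fold changes of -0.24, -0.23 and -0.24 (SE 0.17, 0.13 and 0.14), none of them called. Hapln4 was spread most within the treated group, at 112 and 83.2 CPM. Tnr was called lower (-0.47) when Tau + vehicle replicate 2, the lower of its group, was left out. Bcan, which was called lower in Tau + vehicle than in WT mice, had a log2 fold change of 0.019 with the drug, with a 95% interval from -0.16 to 0.20. Tnc had a log2 fold change of 0.0015 with an interval from -0.65 to 0.65, and was called higher (0.65) without Tau + vehicle replicate 1. Ncan (-0.10, SE 0.082) and Ptprz1 (-0.0078, SE 0.075) were not called.

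**Figure D3:**
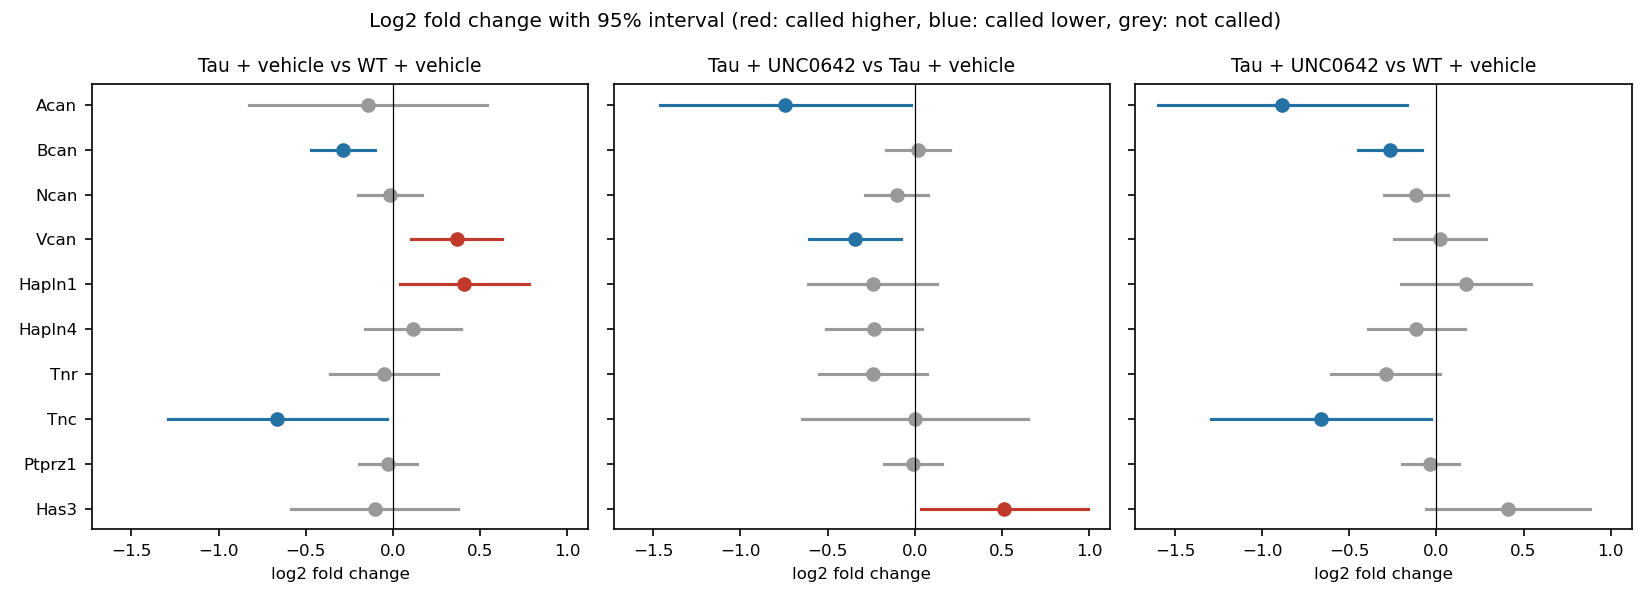
Log2 fold change (x axis) with its 95% interval for the 10 genes (y axis) in the 3 comparisons, from edgeR's quasi-likelihood fit of all 6 libraries; red marks genes called higher, blue genes called lower and grey genes not called. Vcan is red at 0.37 in the first panel and blue at -0.34 in the second, and Bcan is blue in both panels against WT with a value near 0 in the middle panel.

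**Figure D4:**
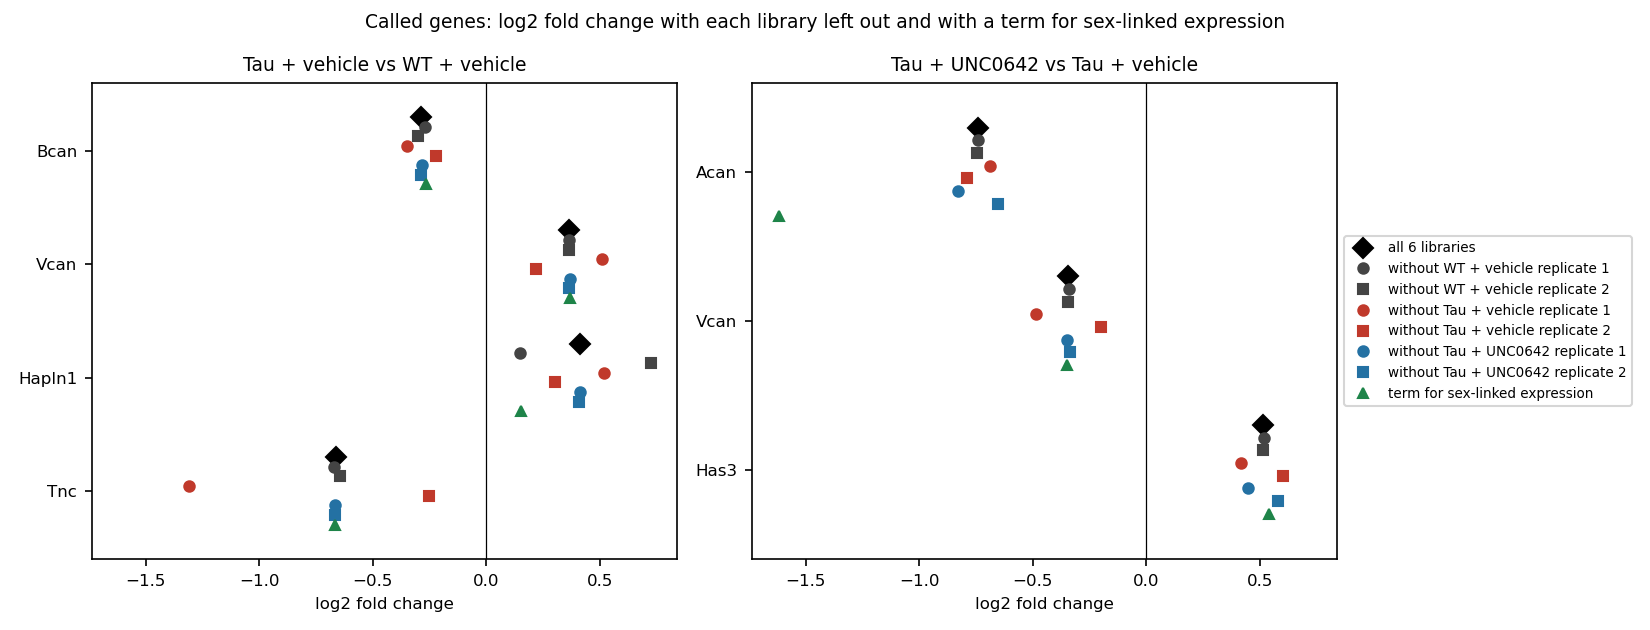
Log2 fold change (x axis) of the genes called in the first 2 comparisons (y axis), for all 6 libraries (black diamond), with each library left out in turn (circles and squares in the colour of the group) and with a term for sex-linked expression (green triangle). All points of a gene lie on one side of 0, and they spread most for Tnc (-1.31 to -0.25) and, through the sex-linked term, for Acan with the drug (-1.62 to -0.65).

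Tau + UNC0642 mice were then compared with WT mice. No gene of the 10 was called higher (background 3.77%), and Acan, Bcan and Tnc were called lower (3 of 10, background 5.69%). The log2 fold change was -0.88 for Acan (SE 0.32, adjusted p = 0.317), -0.27 for Bcan (SE 0.082, adjusted p = 0.254) and -0.66 for Tnc (SE 0.28, adjusted p = 0.394). Again 0 of the 10 genes had an adjusted p under 0.05 in edgeR's quasi-likelihood test, limma-voom and DESeq2, and 3, 3 and 4 had an unadjusted p under 0.05. Tnr was at -0.29 (SE 0.14) and not called, and was called lower in 7 of 15 other fits. Without the filter on low counts, edgeR's adjusted p was 0.0155 for Tnc and 0.0301 for Tnr. The median was -0.12, against -0.012 over all genes tested. The value for Acan depended on which WT library was left out. Without WT replicate 1, its log2 fold change was -0.38 and not called. Without WT replicate 2, where the WT and treated libraries left were all of the male pattern, it was -1.26. Acan was also not called without Tau + UNC0642 replicate 2 (-0.80), Bcan without WT replicate 1 (-0.25) or Tau + UNC0642 replicate 1 (-0.22) and with DESeq2's size factors or Wald test (both -0.26), and Tnc without either WT library (-0.68 and -0.65), without Tau + UNC0642 replicate 2 (-0.42) or with the sex-linked term (-0.65). Vcan was at 0.023 (95% interval -0.24 to 0.29) and Hapln1 at 0.17 (SE 0.17). Hapln1 was called higher at 0.48 with WT replicate 2 left out, which leaves libraries of the male pattern. Has3 was at 0.41 (SE 0.21), with both treated libraries above both WT libraries, and was not called.

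The other genes of the matrix pathway were read from 6 lists with 82 genes, of which 81 were in the counts and 77 could be tested. Between Tau + vehicle and WT mice, 3 were called higher (background 3.72%) and 6 lower (background 6.10%), with a median log2 fold change of -0.0059. Between Tau + UNC0642 and Tau + vehicle mice, 3 were called higher (background 3.73%) and 8 lower (background 3.95%), with a median of -0.039. Between Tau + UNC0642 and WT mice, Sema3a, Nptx2 and Sdc4 were called higher and Tnxb, Nfasc, Sdc3 and Spock1 lower, named after their values were seen. The counts of single lists are read against these shares, and 1 or 2 calls in a list are not a result about the list. An adjusted p under 0.05 was reached by 0 of the 77 genes in each comparison in edgeR's quasi-likelihood test.

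Of 12 tested genes of the hyaluronan list, 1 was called higher (background 3.72%) and 3 lower (background 6.10%) between Tau + vehicle and WT mice. Cd44, a hyaluronan receptor, was at 4.81, 7.85, 3.72, 1.95, 4.56 and 5.21 CPM. Both Tau + vehicle libraries were below all others, and Cd44 was called lower with tau (-1.13, adjusted p = 0.268) and higher with the drug (0.75, adjusted p = 0.561). The endothelial markers were likewise lower in Tau + vehicle than in WT libraries, but also low in Tau + UNC0642 replicate 1 (137.9 CPM). The meningeal markers, like Cd44, were highest in WT replicate 2 and lowest in Tau + vehicle replicate 2. Their sum in Tau + vehicle replicate 1 was above that in WT replicate 1. The part of these cell types in the Cd44 values was not tested. Has2, another hyaluronan synthase, was called lower (-1.44) at under 1.06 CPM in every library, and Tmem2, a cell surface protein linked to hyaluronan breakdown, was called lower (-0.28). Ugdh, which makes the glucuronate donor for hyaluronan and chondroitin chains, was called higher (0.28). Cemip, the most abundant gene of this list, was at 30.9 to 38.2 CPM with a log2 fold change of -0.0059, and Hmmr, a hyaluronan-binding protein of dividing cells, was called lower with the drug (-0.96).

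Of 21 tested genes that build and sulfate chondroitin chains, 1 was called lower with tau, and 1 was called higher and 1 lower with the drug, which is near the background shares. Chst14, a dermatan sulfotransferase, was lower with tau (-0.92) and higher with the drug (1.12), at 0.687 to 1.66 CPM. It is also in the study's list of genes that changed with tau and moved back with the drug. That list was chosen on these same libraries, so the direction of Chst14 here is not independent evidence. Xylt1, which starts the chains, was at 66.9, 74.4, 83.3, 70.8, 59.1 and 60.2 CPM. Both treated libraries were below the 4 others, with a log2 fold change of -0.37 with the drug (SE 0.10, adjusted p = 0.395). Fam20b, B3gat3 and Xylt1 were the most abundant of the list, and the first 2 were not called in any comparison. Of 12 tested proteases of lecticans and their inhibitors, Adamts5, an aggrecanase, was called lower with tau (-1.20) but was set apart by WT replicate 1, at 5.87 CPM against 1.72 to 2.56 CPM elsewhere. Timp2, Timp3 and Timp4, the most abundant of that list, were not called in any comparison.

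Among 16 tested receptors and partners of net proteins, none was called with tau, and with the drug Rtn4r (-0.53) and Nfasc (-0.37) were called lower and Nptx2 higher (0.28). Rtn4r is the Nogo receptor, Nfasc is an adhesion protein of the axon initial segment, and Nptx2 is a secreted pentraxin that gathers AMPA receptors on parvalbumin interneurons. Nptx2 was at 50.3, 46.3, 57.3, 55.7, 74.7 and 63.0 CPM, with both treated libraries above all others. Cntn1, Nrcam and Ptprs, the most abundant of the list, were not called in any comparison. Of the other link proteins and tenascins, 0 of 4 were called with tau and only Hapln2 with the drug (-0.77). Hapln2, the link protein of nodes of Ranvier, was at 16.6 CPM in Tau + vehicle replicate 2 and at 5.90 to 8.99 CPM elsewhere, the same library that was high in mature oligodendrocyte markers. It is also in the study's list chosen on these libraries.

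Of 12 other brain proteoglycans, Sdc4 (0.44) and Spock3 (0.45) were called higher and Agrn (-0.27) lower with tau, and Sdc3 (-0.36), Spock1 (-0.35) and Spock3 (-0.46) were called lower with the drug. Sdc4, the syndecan of focal adhesions, was at 59.9, 64.1, 77.7, 90.5, 78.9 and 87.5 CPM, and all 4 libraries of Tau mice were above both WT libraries. Spock3, a testican, was at 118 CPM in Tau + vehicle replicate 2 and at 67.1 to 74.9 CPM in the other libraries. Spock2, Cspg5 and Spock1 were the most abundant of this list, and Cspg5, neuroglycan C, stayed between 275 and 304 CPM with no call in any comparison.

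**Figure D5:**
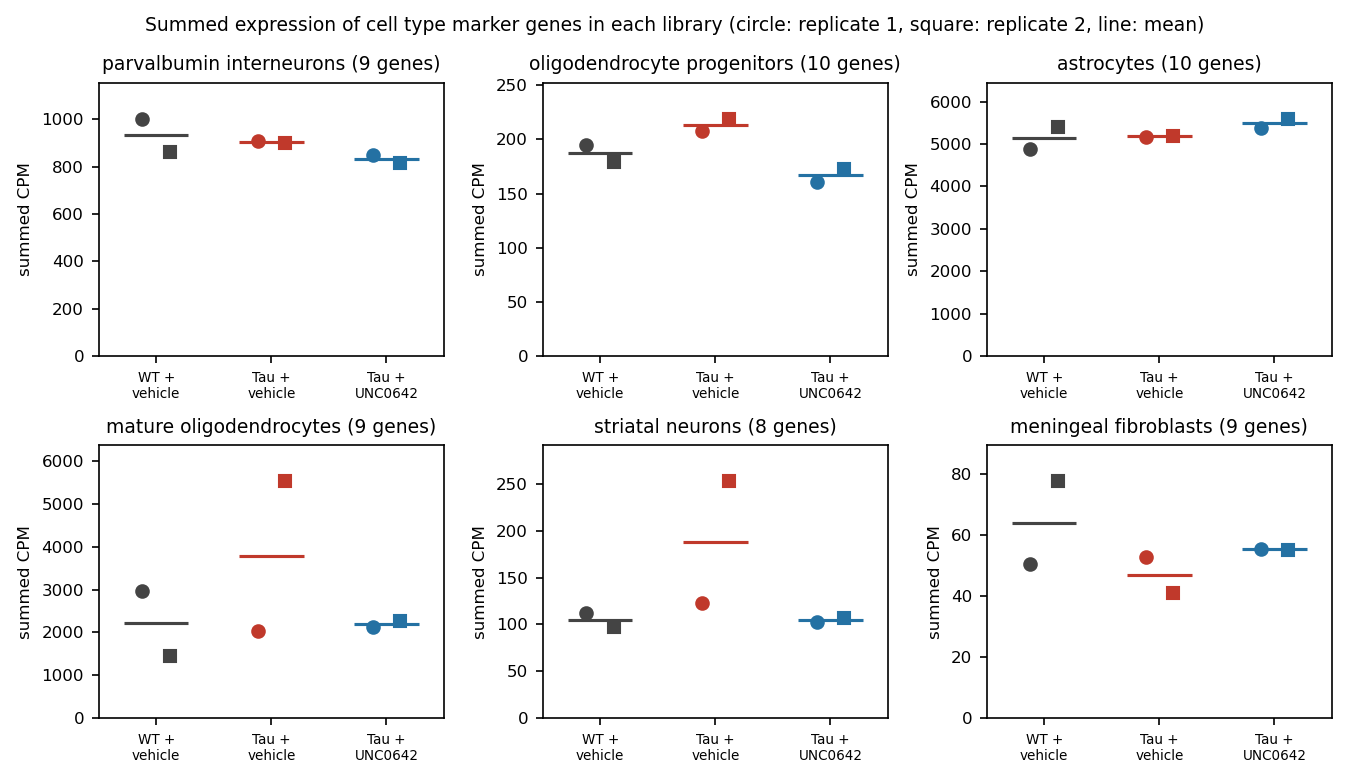
Summed CPM of marker genes of 6 cell types (y axis, a separate scale from 0 in each panel) in the 2 libraries of each group (x axis); circles are replicate 1, squares replicate 2 and lines group means. Tau + vehicle replicate 2 is high for mature oligodendrocytes (5533 CPM) and striatal neurons (252.9 CPM), and the progenitor markers are lowest in the Tau + UNC0642 libraries (161 and 173 CPM).

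Of the other marker lists, astrocyte markers summed to 4893 to 5598 CPM, markers of cortical neurons to 5488 to 6351 CPM and those of microglia to 281 to 352 CPM. Meningeal markers ran from 41.0 CPM in Tau + vehicle replicate 2 to 77.8 CPM in WT replicate 2, and endothelial markers from 135.5 to 195.6 CPM, with both WT libraries highest. All 8 striatal markers were called higher in Tau + vehicle than in WT mice (background 3.72%), and 7 of them lower with the drug (background 3.95%). Drd1, Drd2, Adora2a, Ppp1r1b, Rgs9, Penk and Tac1 are in the study's list of genes that changed with tau and moved back with the drug. That list was chosen on these same libraries, so the directions of these markers are not independent evidence. Tau + vehicle replicate 2 was the highest library for their sum, as it was for Vcan, Hapln1, Hapln2 and Spock3. It was the lowest library for Bcan and Tnc. That library was left out only in the fits of the 10 genes.

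Genes whose log2 CPM followed each called gene most closely over the 6 libraries were found among those with a mean of at least 100 counts, as a description. The points share libraries, depth and tissue composition. The closest to Vcan were Tmeff2 (Pearson's r = 0.990), Agpat4 and Pkp4. Those closest to Hapln1 were Lats2 (0.997), Yaf2 and Csf1r, and those closest to Bcan were Irf1 (0.993), Rsph9 and Gfpt2. Acan was followed by Gm14204 (0.997), Adam17 and Rab3b, Tnc by Pfn4 (0.992), Ccdc138 and Gtf2h4, and Has3 by Srek1 (0.987), Csgalnact2 (0.977) and Mthfsl. Those named for each gene were the 3 highest of 12399 or 12400 values over only 6 libraries. None of the genes named for likeness is another of the 10.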

How the data were processed

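The authors extracted total RNA from PFC with a DNase step, depleted ribosomal RNA, made strand-specific libraries and aligned trimmed reads with TopHat2. The submitters' processing notes name TopHat2, SAMtools, featureCounts, edgeR and mm10, and the strand setting of the counting is not given in the sources used here. The deposited values are raw counts per gene, with no normalization by the authors. In 2 libraries 26 gene names had become dates, and these were joined by position. Depth was 17005664 to 28972176 counts per library, and 3 counts, taken as a floor, equal 0.107 to 0.178 CPM, for counting error only.

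Analysis was done in R 4.3.3, with the packages edgeR 4.0.16 and limma 3.58.1. The function filterByExpr (minimum count 10, minimum total 15) kept 20409 genes, TMM factors were 0.966 to 1.04, and edgeR's quasi-likelihood fit used the 6 libraries together, one coefficient for each group and 3 residual degrees of freedom. P-values were adjusted by Benjamini-Hochberg over all genes tested. A gene was called at the study's limits, a p under 0.05 before adjustment and a change of 1.2-fold or more. Standard errors come from the model's coefficients. Coordinates and exon lengths are from GENCODE M21 (GRCm38), matched by symbol, and promoters from RefSeq (GRCm38.p6). The fit was tested on simulated data. Python 3.11.15 made the tables (pandas 2.3.3, numpy 2.4.6, scipy 1.17.1) and the figures (matplotlib 3.10.9).

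The 10 genes and all lists were chosen with earlier results of these data known. All 10 genes are named, with, from each other matrix list, the genes called in the first 2 comparisons and the 3 of highest mean CPM, and, for each called gene, the 3 genes with the closest pattern. Alternatives were DESeq2 1.42.0 (size factors, Wald test), library size alone, the filter left out or set to 10 counts in each library, limma-voom, fits of 2 groups alone, a replicate block, a term for sex-linked expression (Xist and Y-linked genes), other thresholds, and leaving out each library.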

Additional observations from a re-analysis of the deposited data

How the results depend on the processing

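Counts of called genes among the 10 depended on single libraries. They were 4, 3 and 3 for Tau + vehicle against WT, Tau + UNC0642 against Tau + vehicle and Tau + UNC0642 against WT, and ranged from 0 to 5, from 0 to 3 and from 1 to 4 with each library left out. The count of 0 came without Tau + vehicle replicate 2 in the first comparison and without Tau + UNC0642 replicate 2 in the second. The first count was 2 without WT replicate 1, the second was 1 without Tau + vehicle replicate 2 or Tau + UNC0642 replicate 1, and the third was 1 without WT replicate 1 or Tau + UNC0642 replicate 2. A term for sex-linked expression gave 2, 1 and 3, and a fold limit of 1.5 gave 1, 1 and 2. DESeq2's Wald test gave 1 in the second comparison, and adjusted p-values under 0.05 gave 0 in all of them. Of all 20409 genes tested, 2003 and 1569 were called in the first 2 comparisons with the main settings. The sex-linked term gave 1880 and 1642, the 1.5-fold limit 1130 and 855, and DESeq2's Wald test 1055 in the second. Adjusted p-values under 0.05 gave 32, 4 and 44. Leaving out a library leaves 1 in its group, so the counts from those fits are not read against such shares. Without a filter on low counts, Tnc had an adjusted p of 0.0143 against WT in Tau + vehicle mice, and Tnc and Tnr were under 0.05 in Tau + UNC0642 mice. The cause was not tested. Deviations of same-numbered libraries from their group means were hardly correlated (-0.087, -0.015 and -0.0025). With 2 mice per group, this cannot exclude a pairing of the mice. A replicate block gave 4, 2 and 3 called genes, with Has3 lost in the second. Over all 20409 genes it gave 1792 and 1404 calls in the first 2 comparisons. With 2 mice per group and depths from 17005664 counts per library, Acan and Has3 rested on the fewest counts.

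Changes of sign were found for values that had not been called. Between Tau + vehicle and WT mice, with single libraries left out, Acan ranged from -0.51 to 0.36, Tnr from -0.32 to 0.17 and Ncan from -0.12 to 0.084, and the sex-linked term gave 0.36 for Acan. With the drug, the ranges without single libraries were -0.064 to 0.045 for Ptprz1, -0.045 to 0.084 for Bcan, -0.41 to 0.65 for Tnc, -0.20 to 0.0012 for Ncan and -0.47 to 0.029 for Tnr. The sex-linked term gave 0.034 for Ptprz1, -0.016 for Bcan and 0.33 for Hapln1, library size alone 0.023 and the stricter filter 0.00069 for Ptprz1, and limma-voom -0.035 for Tnc. Against WT, library size alone gave -0.016 for Vcan, and the ranges without single libraries were -0.089 to 0.48 for Hapln1, -0.093 to 0.020 for Ptprz1 and -0.34 to 0.084 for Hapln4. With single libraries left out, the median of the 10 genes between Tau + vehicle and WT mice ran from -0.084 to 0.040. Of the alternative values for single genes, 372 had the same direction and side of the threshold, 39 lost a call, 14 gained one and 25 changed sign.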
